A study of Bos taurus with 252 samples.

Results

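The mRNAs of the cytosolic ribosomal proteins were measured in whole blood of feedlot steers before and after a single administration of an antimicrobial. The members were taken by symbol: rows named RPL or RPS with a number, together with RPLP0, RPLP1, RPLP2 and RPSA, of which 79 were in the gene table. A row was kept when it exceeded 0.2 CPM (counts scaled to a common library total) in at least 12 of the libraries, which left 78 members, 46 of the large and 32 of the small ribosomal subunit, among 19056 genes that passed the same minimum and 33282 rows in all. RPL10L was the matching symbol that was left out, because no library exceeded the minimum and it held 251 counts in total. RPL3, at the other side of that limit, passed in 240 libraries, and the other members in all libraries.

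The animals were 42 healthy crossbred steers in 7 groups of 6, each group housed in its own pen. NC steers received no antimicrobial at the start of the study, and each other group received 1 agent: CEFT the cephalosporin ceftiofur, ENRO the fluoroquinolone enrofloxacin, FLOR florfenicol, OXYT the tetracycline oxytetracycline, and TILD and TULA the macrolides tildipirosin and tulathromycin. Blood was drawn into PAXgene tubes on day 0, before administration, and again on days 3, 7, 14, then 21 and 56. All steers, NC included, had already been given tildipirosin and vaccines before they arrived, so NC is not a group that never met an antimicrobial, and pen cannot be told apart from treatment.

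A ribosome is built from ribosomal RNA and the ribosomal proteins, and the mRNAs of these proteins carry a shared start, the terminal oligopyrimidine (TOP) sequence, through which mTOR and LARP1 set their translation and stability. RPLP0, RPLP1 and RPLP2 form the stalk that recruits elongation factors, RPL5 and RPL11 bind 5S ribosomal RNA and can hold MDM2 away from p53, and RPS27A is made as a fusion of ubiquitin with a small subunit protein. In blood these mRNAs are abundant in lymphocytes, and in granulocytes less so. Values are from whole blood, so fewer cells of a type and less of an mRNA per cell cannot be told apart.

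Some features of the libraries bear on the results. Library totals ran from 26.1 to 74.1 M counts with a median of 43.6 M counts. Each steer had all its libraries on 1 of 3 sequencing lanes of 84 libraries: NC and ENRO on lane 1, TULA on lane 2, CEFT and OXYT on lane 3, with FLOR split between lanes 1 (2 steers) and 2 (4 steers) and TILD between lanes 2 (4 steers) and 3 (2 steers). Comparisons of CEFT, OXYT, TILD or TULA with NC, which share no lane, therefore cannot be told apart from comparisons of lanes, unless a lane effect is borrowed from FLOR and TILD.

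A set of 16 libraries stood apart by RPS12, a small subunit protein, a feature that was found after the values were seen. They held 1710 to 2396 CPM of RPS12, and the other 236 libraries held 505 to 1514 CPM, so that a limit of 1600 CPM separated them. All 6 CEFT libraries of day 14 were among them, with 4 TILD libraries of day 14, 2 OXYT libraries of day 14 and 4 OXYT libraries of day 56. When the steers were put in the order of the library numbers and lanes in the labels, the 16 libraries came from the steers at places 27 to 42 of 42, 1 library from each, day 14 for the first 12 of these steers and day 56 for the last 4. RPL21 of the large subunit held 903 to 1631 CPM in these libraries and 263 to 1333 CPM in the others, and RPL27 of the large subunit 298 to 609 CPM against 108 to 428 CPM. RPLP0 overlapped widely, with 2736 to 4754 CPM in the 16 and 1328 to 4193 CPM in the others. Their totals of 26.1 to 47.9 M counts lay in the lower part of the range. What sets these libraries apart was not tested, and the main day 14 and day 56 results are given with and without them where a fit without them was made.

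RPL3, the second such feature, was listed at 0 in 12 libraries in which the row of a gene inside it was high, and its values are given at the end.

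The 78 members held between 2.27% and 8.59% of all counts in a library, with a median of 5.44%. The lowest share was in CEFT steer 10 on day 0 and the highest in CEFT steer 3 on day 14, which is 1 of the 16 libraries named above. Over all steers the median share was 4.85%, 5.31%, 5.71%, 5.79%, 5.45% and 5.61% on the 6 days in order (n = 42 each). The spread between steers was wide beside these steps, with an SD of 1.03 percentage points on day 0 and 1.25 on day 14.

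**Figure D1:**
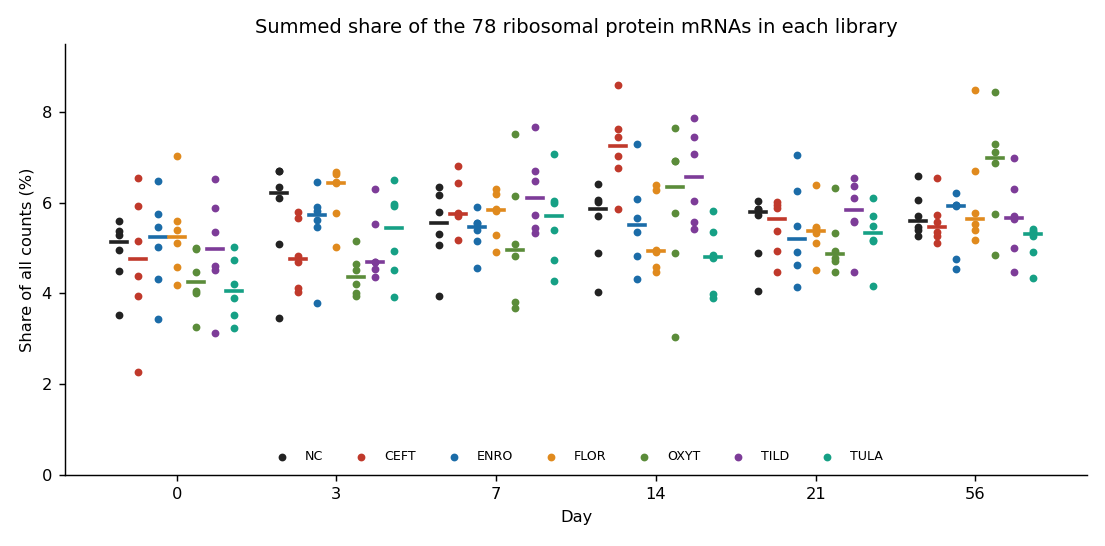
Share of all counts (%) held by the 78 ribosomal protein mRNAs in each library by day, coloured by group, with a bar at each group's median of 6 steers. The CEFT libraries of day 14 reach the highest value, 8.59%, and the lowest, 2.27%, is a CEFT library of day 0.

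The members differed widely in count, although CPM grows with transcript length, which was not used here, so that their order is not an order of molecules. RPLP0 had the highest mean at 2833 CPM, followed by RPS2 (2668 CPM), RPSA (2131 CPM), which was first described as a laminin receptor precursor, RPL10 (1823 CPM) and RPL8 (1631 CPM). The lowest means were those of RPS27L (17.8 CPM), a paralogue of RPS27 known as a p53 target, RPL36A (18.8 CPM), RPL22 (62.6 CPM), RPL3L (105 CPM), the paralogue of RPL3 known from striated muscle, and RPL34 (112 CPM). The median of the member means was 561 CPM, 17 members were above 1000 CPM and 3 below 100 CPM.

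Stability across the libraries differed as much as the level. The coefficient of variation was below 25% in 31 members and above 50% in 12, with a median of 29.1%. RPLP0, often used as a reference gene in quantitative PCR, varied by 18.3% (1328 to 4754 CPM). RPS27L varied by 18.2% (11.4 to 32.4 CPM). At the other end stood RPL36A at 95.7% (1.52 to 169 CPM) and RPS24 of the small subunit at 90.1% (27.4 to 1511 CPM).

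Most members went up and down together. After each steer's own mean was taken out, the log2 level of 46 members correlated with the median of all members at r above 0.8, and that of 12 members at r below 0.5 (42 steers on 6 days, whose libraries share their scaling). RPL35, RPS10, RPS3, RPL32 and RPL13A followed the median most closely (r from 0.96 to 0.97). RPS3 sits at the mRNA entry of the small subunit and RPS10 near it. RPL3L (r = -0.01), RPL3 (r = 0.13), RPS3A (r = 0.22), RPL22 and RPS24 (both r = 0.35) followed it least. Outside the rule, the genes most like the median were LOC781982 and FAU (both r = 0.92), and FAU encodes the small subunit protein RPS30 fused to a ubiquitin-like protein.

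The first question was how the members moved with time, with each steer compared with itself. Relative to day 0, the members called higher numbered 36, 67, 56, 45 and 54 on the 5 later days. None was lower on days 3 and 7, and 7, 8 and 5 were lower on days 14, 21 and 56. A member was called at an adjusted p at or below 0.05 in edgeR's quasi-likelihood test with steer as a block, with Benjamini-Hochberg adjustment over 19056 genes. The median log2 change of the members was 0.15, 0.28, 0.42, 0.29 and 0.36 on the 5 days, against 0.02 to 0.03 for all genes, so that the typical rise was small.

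The background was high, since blood changed broadly over these weeks. Any change over the days was called in 74 members, against 81% of all genes, and RPL3, RPL3L, RPL4 and RPS15A were not called. Among all genes 22.1% were higher and 19.2% lower on day 3, and 25.3% and 20.6% on day 7. The same shares were 34.2% and 30.9% after 14 days, 34.1% and 32.5% after 21 days, and 33.9% and 31.8% after 56 days. The members differed from the background in direction, with few or no members in the lower part. On day 7 they were also called more often, 67 of 78, beside the 25.3% of all genes higher and 20.6% lower.

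**Figure D2:**
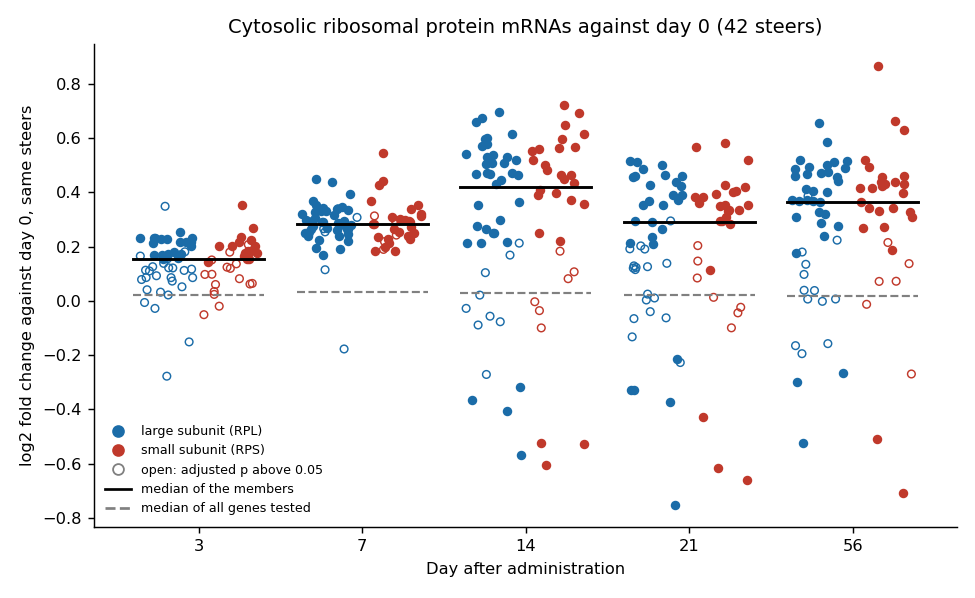
log2 fold change against day 0 in the same 42 steers for each of the 78 members by day, large subunit in blue and small subunit in red, open where the adjusted p is above 0.05, with the median of the members (solid line) and of all genes (dashed line). The member medians run from 0.15 on day 3 to 0.42 on day 14, and a tail of members below 0 appears on days 14, 21 and 56.

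The stalk proteins rose together. RPLP0 held 1328 to 3368 CPM with a median of 2398 on day 0 and 1807 to 4754 CPM with a median of 3070 on day 14 (n = 42 each). The steers overlapped between days, and RPLP0 was higher than on day 0 in 34 of 42 steers on day 3 and in 37 on day 14. Its log2 change was 0.21 ± 0.04 (SE) on day 3 and 0.35 ± 0.04 on day 14, with adjusted p of 9.4e-06 and 5.0e-14. RPLP1 rose by 0.35 ± 0.08 on day 7 and 0.43 ± 0.08 on day 14, and on day 3 its change of 0.18 ± 0.08 had an adjusted p of 0.056. RPLP2 rose on all 5 days, by 0.16 ± 0.06 on day 3 and 0.60 ± 0.06 on day 14. Without the 16 libraries the day 14 changes of the 3 stalk proteins were 0.25, 0.20 and 0.41, all still called.

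The 5S-binding pair did less. RPL5 held 313 to 1070 CPM (median 674) on day 0 and 363 to 1070 CPM (median 733) on day 7, a log2 change of 0.25 ± 0.08 (adjusted p = 0.0033). Its call on day 14 (0.22 ± 0.08) was lost without the 16 libraries, where the change was -0.02. RPL11 rose on day 7 by 0.29 ± 0.11 (adjusted p = 0.026), and its changes on days 14, 21 and 56 were -0.09, -0.06 and 0.04. Without the 16 libraries RPL11 was called lower on day 14, at -0.28 with an adjusted p of 0.043.

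Day 7 had the most members called. The 6 members with the largest rises on that day were RPS29, RPL39, RPS14, RPL35A, RPS27 and RPL31. RPS29, a small zinc-binding protein of the small subunit, held 42.98 to 352 CPM (median 126) on day 0, 40.9 to 477 CPM (median 166) on day 7 and 104 to 555 CPM (median 229) on day 56. Its log2 change was 0.54 ± 0.14 on day 7 and 0.87 ± 0.14 on day 56, the latter in 41 of 42 steers (0.75 without the 16 libraries). RPL39, a protein of the exit tunnel, rose by 0.45 ± 0.15 on day 7 and 0.66 ± 0.15 on day 56, and its day 14 change was 0.17 ± 0.14. RPL35A (0.44 ± 0.14) and RPS27 (0.43 ± 0.14) were called on day 7 and had changes of -0.03 and -0.04 on day 14. RPL31 rose by 0.39 ± 0.12 on day 7 and by 0.53 ± 0.12 on day 14, and without the 16 libraries its day 14 change was 0.15 and not called.

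RPS14, the small subunit protein lost in the human 5q- syndrome, rose by 0.44 ± 0.10 on day 7 and by 0.72 ± 0.10 on day 14 (0.70 without the 16 libraries). Its median was 1010 CPM on day 0 and 1799 CPM on day 14. Single libraries went far above the others, up to 5338 CPM in FLOR steer 10 on day 14. Of the abundant members, RPS2, RPSA, RPL10 and RPL8 were called higher on all 5 days, by 0.20 to 0.23 on day 3 and 0.36 to 0.51 on day 14 (0.23 to 0.39 without the 16 libraries). RPL10 rose from a median of 1441 CPM to 1979 CPM on day 14, in 38 of 42 steers.

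RPS27L, RPL34 and RPL3L were not alike. RPS27L rose by 0.18 ± 0.05 on day 7 and 0.25 ± 0.05 on day 14, the latter 0.09 and not called without the 16 libraries. RPL34 was called on day 7 (0.26 ± 0.11) and day 14 (0.28 ± 0.11), the latter -0.05 without the 16 libraries. RPL3L was called on no day, with changes from -0.18 to 0.13.

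The members that fell are named with their values known. By day 14 they were RPS3A (-0.61), RPL36A (-0.57), RPS27A (-0.53), RPS24 (-0.52), RPL23 (-0.41), RPL9 (-0.37) and RPL22 (-0.32), all on the log2 scale. Each of the 7 was also called lower on day 14 without the 16 libraries, where RPS3A changed by -0.80 and RPS27A by -0.69, and where 12 members in all were lower. RPS27A held 51.2 to 474 CPM (median 183) on day 0, 37.3 to 864 CPM (median 226) on day 7 and 34.6 to 369 CPM (median 136) on day 14. It was lower on day 14 in most steers, with 11 of 42 higher. RPS3A held 129 to 1306 CPM (median 577) on day 0 and 91.4 to 959 CPM (median 359) on day 14, with 13 of 42 steers higher. On day 56 RPS3A (-0.71), RPL36A (-0.52) and RPS24 (-0.51) were still lower than on day 0, with RPL26 and RPL7, all 5 also called without the 16 libraries.

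These 7 members moved together. Their pairwise correlations, with each steer's mean taken out, ran from 0.79 to 0.98 over the same libraries, above the median of 0.67 over all 3003 pairs of members. The 7 were picked for falling by day 14 in these libraries, which by itself raises their correlations. The comparison is therefore a description and no test. For RPS27A the 5 closest genes of all tested were RPL23 (r = 0.98), MGC148714 (0.97), RPL9 (0.96), RPL22 (0.95) and RPL11 (0.94). COX7B, a subunit of cytochrome c oxidase, followed at 0.94. Single libraries carried very high values of several of them at once: FLOR steer 4 on day 56 had the highest RPS27A (1005 CPM), RPS24 (1511 CPM), RPL36A (169 CPM) and RPL22 (314 CPM) of all libraries.

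The rise was also looked for within NC, the steers given no antimicrobial at the start of the study. In these 6 steers 0 members were called on day 3 and 3 higher on day 7, where 0.0315% and 1.10% of all genes were higher. On days 14, 21 and then 56 37, 27 and 35 members were higher, against 15%, 11.9% and 15.4% of all genes. No member was lower on those 3 days, when 12.9%, 10.7% and 12.9% of all genes were.

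Lanes did not give the same course. On day 7 no member was called higher among the 14 steers of lane 1, where 6.49% of all genes were. On lane 2 it was 52 members (18.2% of genes) and on lane 3 35 members (15.1%). On day 14 the members called higher were 37 on lane 1, 43 on lane 2 and 63 on lane 3, against 21.9%, 25.8% and 26.5% of all genes. Members called lower on day 14 were 1, 11 and 0, against 19.5%, 24% and 23.7%.

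A test of whether the course over the days differed between lanes called 52 members, against 9.79% of all genes, with RPS12, RPL21 and RPL27 at the smallest p. Without the 16 libraries the same test called 1 member, against 3.54% of genes. Since the 16 were picked for a high value of a member, this fit, like the others without them, describes the remaining libraries and is no test of whether members differ between lanes. Of the 14 lane 3 libraries of day 14, 10 are among the 16. With the 4 that remain, kept for a lower RPS12, 12 members were higher on day 14 in place of 63, with 11.9% of genes higher. On lane 2 without its own, 12 members were lower, with 22.9% of genes lower.

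The day 14 rise over all steers was smaller but present without the 16 libraries. There 45 members were higher and 12 lower, against 31.4% and 29% of genes, and the median change was 0.24 in place of 0.42. On day 56 51 were higher and 5 lower, against 32.7% and 31% of genes, with a median of 0.27 in place of 0.36. Days 3, 7 and 21, which hold none of the 16, gave medians of 0.15, 0.28 and 0.29 in that fit.

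**Figure D3:**
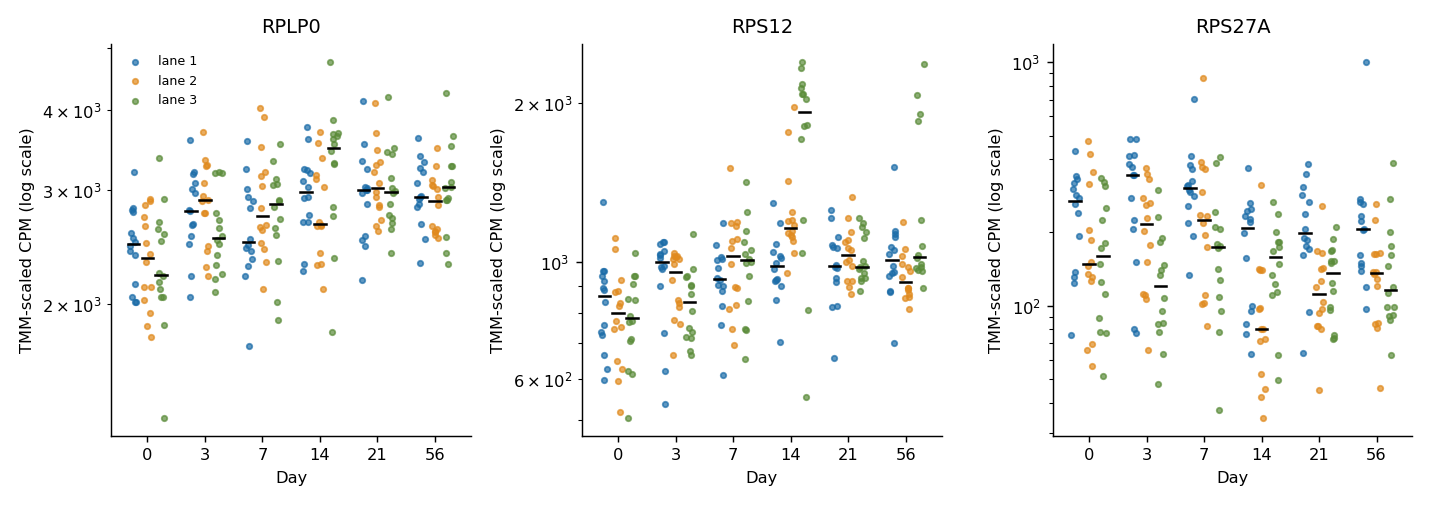
TMM-scaled CPM (log axis) of RPLP0, RPS12 and RPS27A in each library by day, coloured by sequencing lane, with a bar at each lane's median of 14 steers. RPS12 on lane 3 has a day 14 median of 1926 CPM against 982 CPM on lane 1, and RPS27A on lane 2 falls to a median of 80.01 CPM on day 14.

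By lane, the medians of RPS12 on day 14 were 982, 1159 and 1926 CPM on lanes 1, 2 and 3, while on day 0 they were 862, 798 and 781 CPM. RPS12 changed from day 0 to day 14 by 0.24 ± 0.08 on lane 1, 0.66 ± 0.08 on lane 2 and 1.13 ± 0.15 on lane 3. RPS27A changed over the same days by -0.48 ± 0.26, -1.04 ± 0.25 and -0.16 ± 0.25, and was called on lane 2 (adjusted p = 0.00037). The test of whether the course over the days differed between lanes did not call RPS27A (adjusted p = 0.095). Its median on lane 2 was 148 CPM on day 0 and 80.01 CPM on day 14.

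The second question was whether treated steers differed from NC on a given day, which was tested in 36 comparisons of 6 against 6 libraries at an adjusted p at or below 0.1. All 36 share the NC libraries of their day. 6 comparisons called at least 1 member: CEFT, FLOR, OXYT and TILD on day 3 and CEFT and TILD on day 14. The other 30 called 0 members, against 0.095% of the genes tested in edgeR. Among those 30, unadjusted p was under 0.05 for 44 members in OXYT on day 56 (11.9% of all genes) and for 37 in TULA on day 56 (7.74% of all genes). DESeq2 called 98 of the 2340 member tests and 1.77% of all gene tests. The 44 in OXYT on day 56 included 35 that were higher, and 4 of the 6 OXYT libraries of that day are among the 16. With the remaining 2 OXYT libraries the member median went from 0.31 to -0.18 and none was called.

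CEFT on day 14 was the comparison with the most member calls. 29 members were higher and none lower, and they made up 29 of the 60 genes called, while 0.268% of all genes were called higher. In 38 members all 6 CEFT libraries lay above all 6 NC libraries, which held for 0.824% of all genes. The median log2 difference was 0.48 over the 78 members and -0.01 over all genes, and 65 members were above 0. All 6 CEFT libraries of this day belong to the 16 described above, so that there is no value without them.

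RPS12 held 1710 to 2337 CPM (median 2081) in CEFT and 922 to 1080 CPM (median 982) in NC on day 14. The groups did not overlap, with a log2 difference of 1.04 ± 0.09 (adjusted p = 0.0013). On day 0 the same steers had 505 to 1037 CPM in CEFT and 625 to 919 CPM in NC and overlapped. RPL21 held 1143 to 1631 CPM (median 1263) in CEFT and 534 to 721 CPM (median 640) in NC and differed by 1.08 ± 0.11 (adjusted p = 0.0032). RPL27 held 431 to 609 CPM (median 475) against 222 to 297 CPM (median 270) and differed by 0.90 ± 0.10 (adjusted p = 0.0063). Neither pair of groups overlapped. With lane as a term, estimated through the FLOR and TILD steers that were split over lanes, no member was called, and the differences were 0.34 ± 0.49 for RPS12, -0.27 ± 0.55 for RPL21 and -0.29 ± 0.52 for RPL27.

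**Figure D4:**
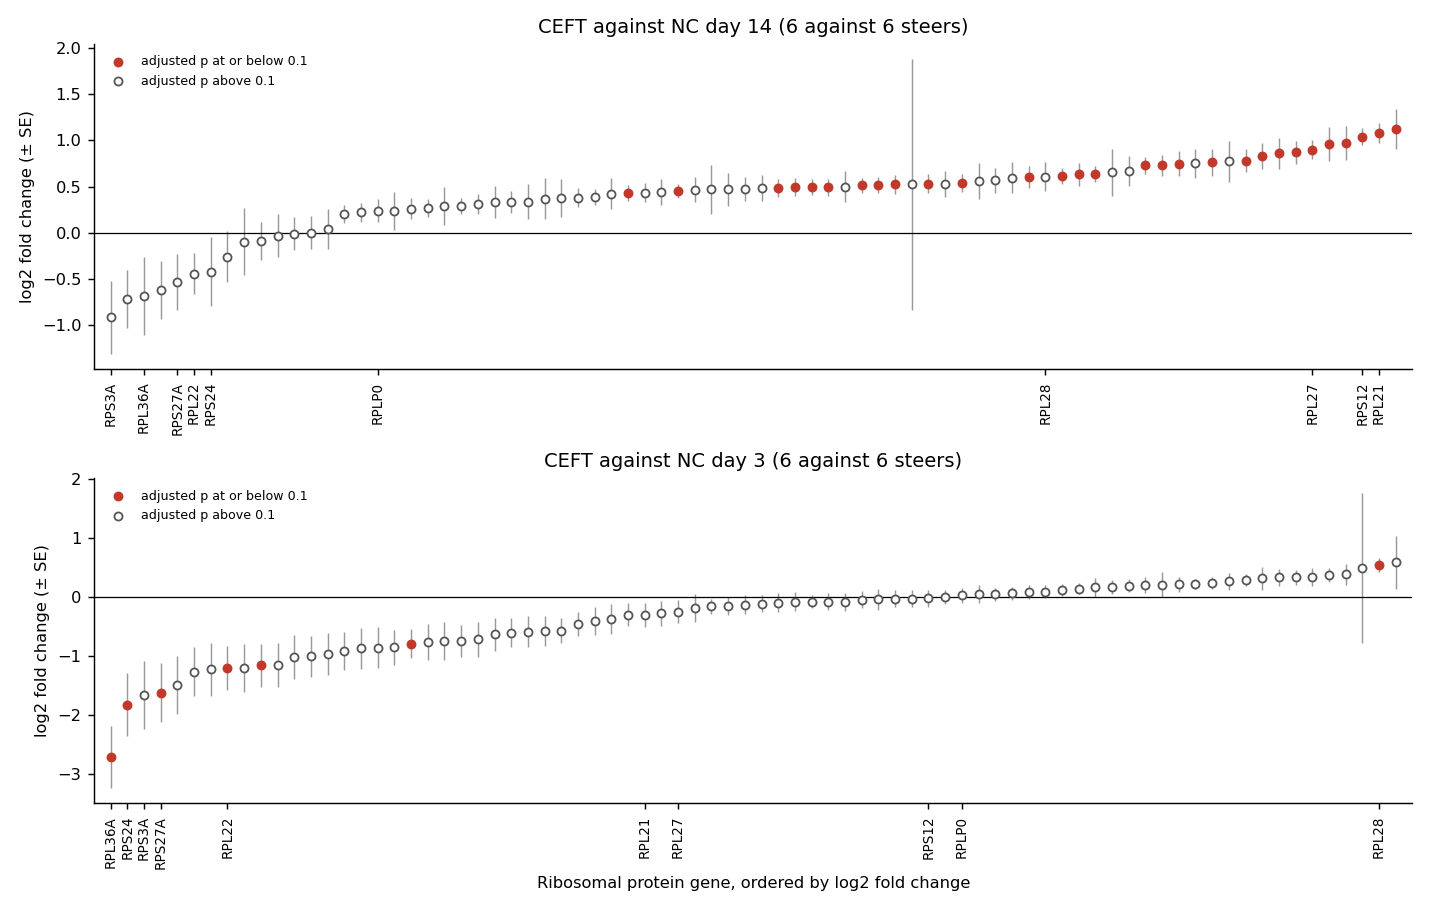
log2 difference (± SE) of CEFT against NC for each of the 78 members on day 14 (upper) and day 3 (lower), 6 against 6 steers, ordered by size, with 10 of them named on the axis, and filled where the adjusted p is at or below 0.1. On day 14 29 members are filled, all above 0, and on day 3 7 are filled, 6 of them below 0.

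The rise was uneven among the members. RPLP0 held 2736 to 4754 CPM in CEFT and 2675 to 3241 CPM in NC, which overlapped, and RPS27A held 111 to 168 against 63.6 to 265 CPM. The other genes called in this comparison included BTF3, a part of the nascent polypeptide complex, MRPL21 of the mitochondrial ribosome, and SLIRP, COPS9, NDUFA12 and NDUFB1, and in the lower direction SCD and SQLE of lipid synthesis, all named after their values were seen. The call did not rest on 1 steer, but most single omissions made it smaller. Leaving out any 1 NC or CEFT steer gave 7 (NC steer 15) to 18 (NC steer 5) members. The exception was CEFT steer 8, without which 29 were called.

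CEFT on day 3 gave a smaller set, mostly in the lower direction. 1 member was higher and 6 lower, against 4.95% and 3.4% of all genes. RPL36A of the large subunit held 1.89 to 8.63 CPM (median 4.0) in CEFT and 5.78 to 57.5 CPM (median 34.1) in NC, a difference of -2.71 ± 0.53 (adjusted p = 0.046). RPS24 differed by -1.83 ± 0.54 (52.2 to 234 against 54.2 to 567 CPM) and RPL22 by -1.20 ± 0.37 (24.3 to 87.0 against 32.3 to 145 CPM), and both groups overlapped. RPS27A had a median of 81.5 CPM in CEFT and 400 CPM in NC and differed by -1.62 ± 0.50 (adjusted p = 0.094), beside RPS15A (-0.79). These calls were not stable, and their number changed with any 1 steer left out. Without NC steer 7, 12, 13 or 15 none was called, without NC steer 1 or CEFT steer 3, 4, 5, 6 or 10 it was 1 or 2, without NC steer 5 it was 29 and without CEFT steer 8 it was 32 members.

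RPL28 of the large subunit was the member higher in CEFT on day 3, with 496 to 727 CPM against 347 to 499 CPM in NC (0.54 ± 0.12, adjusted p = 0.059). It was the called member in TILD on day 3 too, with 450 to 629 CPM (0.46 ± 0.11, adjusted p = 0.084; 0.95% of all genes were higher). CEFT and TILD are compared with the same NC libraries, so these are not independent. On day 0, before administration, its median was already 457 CPM in CEFT and 432 CPM in TILD against 367 CPM in NC, and it was not called on that day. On days 7, 14, 21 and 56 the medians were 608, 700, 647 and 561 CPM in CEFT, 607, 710, 799 and 590 CPM in TILD, and 425, 486, 485 and 476 CPM in NC.

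The remaining calls were few. In FLOR on day 3 2 members were higher, with 0.572% of genes higher. One of them, RPS16 of the small subunit, held 731 to 831 CPM (median 766) against 496 to 684 CPM (median 606) in NC, did not overlap with NC, and differed by 0.36 ± 0.09 (adjusted p = 0.085). In OXYT on day 3 RPL36A (5.48 to 13.1 CPM, -1.78 ± 0.44) and RPS24 (78.6 to 132 CPM, -1.69 ± 0.42) were called lower than in the same NC libraries, with 0.887% of genes lower. In both members the OXYT and NC libraries overlapped. In TILD on day 14 RPL38, a large subunit protein known for its part in translating Hox mRNAs in mouse embryos, held 293 to 518 CPM against 210 to 264 CPM in NC (0.83 ± 0.13, adjusted p = 0.035), with 0.142% of genes higher. 4 of those 6 TILD libraries are among the 16, and with the 2 that remain RPL38 differed by 0.48 ± 0.13 and was not called, in a fit that called 1 gene in all (0.00525% of genes).

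The third question was whether the change from day 0 differed between a treatment and NC. Over all days 10 members were called in CEFT (4.65% of genes), 12 in OXYT (3.25%), 1 in ENRO (8.67%), and none in FLOR (0.861%), TILD (0.42%) or TULA (0.042%). RPS12 had the smallest p in CEFT (adjusted p = 0.0028) and in OXYT (adjusted p = 0.0038). From day 0 to day 14, a test added after the values were seen, CEFT rose more than NC in 5 members (0.157% of genes were higher), RPS12 by 0.99 ± 0.21, with RPL24, RPL38, RPS23 and RPL23A. Without the 16 libraries no member was called in CEFT or OXYT, where the CEFT fit has no day 14 left. That fit called 571 of all genes in CEFT and 24 in OXYT, in place of 886 and 620 with all libraries. With so few genes called in OXYT, the absence of members there says little about the members. Without steer as a block 2 members were called in each. The change from day 0 to day 3 called 0 members in all 6 treatments in edgeR, against 0.0831% of gene tests. In the same test 11 members had an unadjusted p under 0.05 in CEFT. The share of all genes at that cut is not given here, so this count cannot be read as an excess.

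RPS14 was the member called in ENRO (adjusted p = 0.017). Its median in ENRO was 1232, 1979, 1189, 1596, 1560 and 1412 CPM on the 6 days, and in NC 928, 1113, 1504, 1355, 1398 and 1703 CPM. The ENRO median was above that of NC on days 0, 3, 14 and 21 and below it on days 7 and 56. ENRO and NC were both on lane 1 and hold none of the 16 libraries.

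Averaged over all 6 days, day 0 included, and tested with limma at an adjusted p at or below 0.05, 3 members were higher (1.59% of genes) and 1 lower (1.83%) in CEFT than in NC, and 5 were higher in TILD (2.85%). The other treatments had none, against 0.827% of gene tests. RPL23A and RPL28 were called in both, by 0.45 ± 0.11 and 0.39 ± 0.11 in CEFT and 0.41 ± 0.11 and 0.45 ± 0.11 in TILD. RPL38 was called in both as well, RPS3A was lower in CEFT by -1.07 ± 0.33, and RPS23 and RPL24 were higher in TILD. Without the 16 libraries RPL23A, RPL28 and RPS3A were called in CEFT, and the same 5 members in TILD. Lane and treatment cannot be told apart here.

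The rest of the translation machinery was described by lists, to be read against the 34.2% of all genes that were higher and 30.9% that were lower on day 14. Of 8 ribosome components outside the rule, 6 were higher and 1 lower on day 14 (median change 0.23), among them RACK1 (0.45) and FAU (0.25), with RPL36AL lower (-0.14). Of 17 translation factors with TOP mRNAs, 12 were higher and 1 lower on day 14 (median 0.20), including EEF1A1 (0.20), the elongation factor that brings in aminoacyl-tRNA, while EIF3E was lower (-0.41). Of 36 ribosome biogenesis genes 16 were higher and 8 lower (median 0.06), with nucleophosmin (NPM1, 0.08) among the former and nucleolin (NCL, -0.15) among the latter. Of 13 genes of the mTOR pathway, 5 were higher and 6 lower (median -0.04), MTOR (-0.22) and LARP1 (-0.38) among the lower ones. With the 16 libraries left out the 4 lists had 5, 7, 16 and 6 genes higher and 1, 2, 9 and 6 lower on day 14, with medians of 0.12, 0.12, 0.05 and -0.02.

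Ribosomal proteins of mitochondria, made by other genes, were counted for comparison. Of 77 tested, 39, 52, 54, 48 and 43 were higher and 2, 1, 6, 12 and 15 lower on the 5 later days. Their median change on day 14 was 0.26, and 0.42 for the cytosolic members. The medians without the 16 libraries were 0.21 and 0.24, with 48 of the 77 higher and 10 lower. In CEFT on day 14 1 of the 77 was called and in CEFT on day 3 15 were higher and 5 lower.

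Markers of blood cells moved with the days. Of 10 T cell genes, 6, 10, 9, 8 and 9 were higher on the 5 days, and their summed level ran from 1394 to 3080 CPM on day 0 and from 1887 to 4104 CPM on day 14. Of 7 B cell genes 6 were higher on day 14, and of 6 monocyte genes 5 were lower, with sums of 273 to 1306 CPM on day 0 and 180 to 757 CPM on day 14. Of 7 neutrophil genes tested (CSF3R and FPR1 had no row by symbol) 4 were lower on day 14. With those 16 libraries left out 8 T cell and 6 B cell genes were higher and 5 monocyte and 4 neutrophil genes lower on that day. With steer means taken out, the member median correlated with the T cell list at r = 0.54 and the monocyte list at r = -0.57 (all libraries of 42 steers, which share their scaling). RPS27A correlated with them at r = -0.11 and -0.05. Of 9 erythroid genes 6, 6, 8, 8 and 1 were higher on the 5 later days and 1 was lower on day 56, and hemoglobin took a median of 0.22% of counts on day 0, 3.07% on day 14 and at most 25.5% in 1 library of day 3. The part of these cell types in the members' rise was not tested.

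In CEFT on day 14 no gene of the T cell, B cell, NK cell, neutrophil, monocyte, eosinophil, platelet or erythroid lists was called. In that comparison 0.268% of all genes were called higher, so lists this short could give no call whatever the cell mix. The absence of calls is therefore no test of cell composition. The summed T cell level was 2527 to 3494 CPM in CEFT and 2243 to 3739 CPM in NC, and the monocyte level 191 to 262 against 184 to 386 CPM, which overlapped. The median difference was -0.02 for the T cell, 0.22 for the B cell, -0.37 for the NK cell, -0.17 for the neutrophil, -0.35 for the monocyte, -0.30 for the eosinophil and basophil, -0.64 for the platelet and -0.67 for the erythroid genes, and 0.48 for the members.

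Some members shared counts with other rows. RPL3, which lies close to the catalytic centre of the ribosome, was below 50 CPM in 13 libraries of 3 steers and at 0 in 12 of them: all 6 of NC steer 1, 4 of CEFT steer 10 and 3 of TILD steer 8. In those libraries the row of MIR2440, a microRNA gene that RefSeq places inside RPL3, held 769 to 2293 CPM, against 6.53 to 1261 CPM in the others. The coefficient of variation was 44.9% for RPL3 and 95.6% for the MIR2440 row, and 21.3% for their sum. RPL3 by itself was called on no day, with SEs of 0.23. Summed with the MIR2440 row it was higher on all 5 days, by 0.20 ± 0.04 on day 3 and 0.35 ± 0.04 on day 14.

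**Figure D5:**
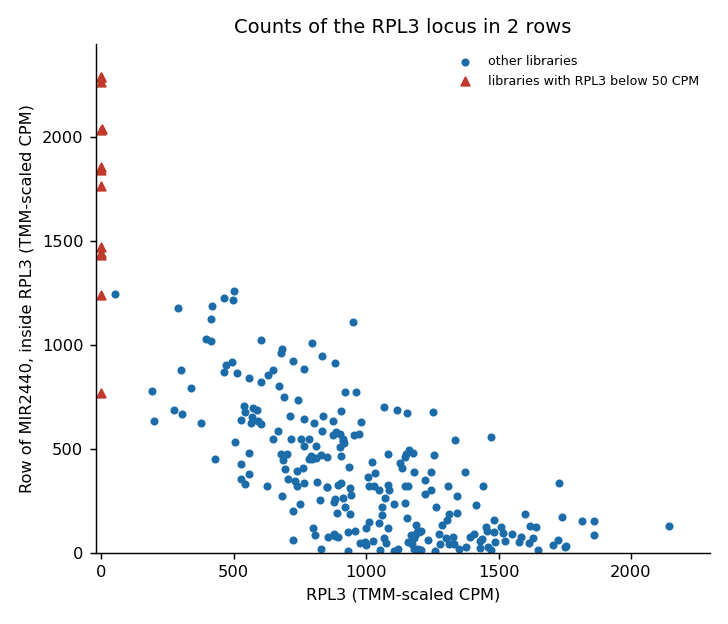
RPL3 (horizontal axis) and the MIR2440 row inside it (vertical axis), both in TMM-scaled CPM, in each library of 42 steers, with triangles for the 13 libraries with RPL3 below 50 CPM. The triangles lie at 0 to 1.65 CPM of RPL3 and 769 to 2293 CPM of MIR2440.

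RPL3L was looked at after its values were seen. Its level and that of its neighbour MSRB1 correlated at r = -0.67 over all libraries of 42 steers, and their coefficients of variation of 53.3% and 81.6% dropped to 29.7% for the sum. Of 138 pairs of a member and a near gene, 10 had r below -0.4. The levels of RPL3 and RPL3L are uncertain for that reason. The other pairs below that limit were of RPS13, RPL19, RPL24, RPS20, RPL35 and RPS6. The coefficient of variation was 36.7% for RPS20 and 16.2% for its sum with LYN, and 23.4% for RPL24 and 22.7% for its sum with CEP97. Whether counts moved between rows in these pairs was not tested, so the levels of these members may be uncertain too.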

How the data were processed

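Whole-blood mRNA libraries (stranded kit, PAXgene tubes) of 42 steers on 6 days were used, 252 in all, grouped by the treatment and day in the labels. The deposited values are raw counts per gene, made by the authors with Trimmomatic 0.39, HISAT2 (2.1.1 per the labels), StringTie 2.2.0 and its count script against ARS-UCD1.3, so they derive from read coverage and are whole numbers. Counts per row can move between overlapping genes in such a pipeline. Library totals were 26.1 to 74.1 M counts, and read counts are not independent molecules.

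Counts were scaled by TMM (factors 0.703 to 1.17) and tested with edgeR 4.0.16 on R 4.3.3 over all 19056 genes above 0.2 CPM in at least 12 libraries. Days were tested with steer as a block, each treatment against NC with 12 libraries (FDR at or below 0.1, the study's threshold), the change from day 0 with the steer block, and the mean of a treatment over all 6 days against NC with limma voom 3.58.1 and steer as a random block (FDR at or below 0.05). Designs with the steer block used edgeR's current quasi-likelihood method without a trended dispersion, because the trend was too slow with that many terms, and the trended fit was an alternative. Levels are TMM-scaled CPM, and correlations used log2(CPM + 0.5) less each steer's mean. The steer number pairs the days: same-steer libraries correlated at a median of 0.39 and libraries of other steers at -0.0088, with all 42 steers above 0.1. P-values of a treatment against NC on 1 day rest on the spread between steers, 1 library each. Those of the fits with the steer block rest on the spread within steers between days, after each steer's own level is taken out. All treatment comparisons of a day share its NC libraries. The code was tested on simulated data. Alternatives were DESeq2 1.42.0, limma voom for the days, ComBat_seq (sva 3.50.0), other scalings, no filter, a lane term, single lanes and left-out steers or libraries, of which the fits by lane, without the 16 libraries high in RPS12, without libraries of low TMM factor, with a trended dispersion and with RPL3 merged with the MIR2440 row were chosen after seeing the data.

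The members and all lists were chosen with earlier results of these data known. Members named with values were RPS27A, the stalk and 5S-binding proteins, the paralogues, the 5 highest and lowest means, the 6 largest rises on day 7, the 3 smallest p per direction in each comparison, and the 5 most and least like the median. The other members named were chosen after their values were seen, and a few items that these rules would name are not reported here. RefSeq gene names (a table for another build) matched all 78 members, and no coordinates or sequences are given.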

Additional observations from a re-analysis of the deposited data

Results flagged for a closer look

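In groups of 6 steers on 1 day, single libraries stood far from the other 5 by Dixon's ratio in 22 of 210 tests over 5 measures, where chance gives about 1 in 20. RPS27A and RPS24 gave most of them, always as 1 high library. RPS27A reached 298 CPM in CEFT steer 8 on day 3 (others 47.6 to 95.3), 409 CPM in CEFT steer 10 on day 7, 707 CPM in ENRO steer 2 on day 7, 864 CPM in TULA steer 3 on day 7, 314 CPM in FLOR steer 6 on day 14 and 1005 CPM in FLOR steer 4 on day 56 (others 83.7 to 224).

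RPS24 was high in the same 6 libraries, at 234, 318, 875, 1139, 361 and 1511 CPM, and in CEFT steer 6 on day 56 (313 CPM) and FLOR steer 6 on day 21 (276 CPM).

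RPS12 was low in CEFT steer 6 (677 CPM) and ENRO steer 2 (537 CPM) on day 3, and high in OXYT steer 6 on day 21 (1185 CPM), TILD steer 5 on day 7 (1508 CPM) and TULA steer 8 on day 56 (992 CPM, others 852 to 892). RPLP0 was high on day 21 in NC steer 1 (4131 CPM) and OXYT steer 6 (3443 CPM). The summed share of the members was 3.78% in ENRO steer 2 on day 3, against 5.47% to 6.46% in the other 5.

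The course over the days differed from NC in 10 members in CEFT, 12 in OXYT and 1 in ENRO, and the rise to day 14 differed in 5 members in CEFT. It differed between lanes in 52 members with all libraries and in 1 member without the 16 libraries high in RPS12, which were picked for the level of a member, so that the latter value is a description. These come from tests of the difference itself, and in CEFT and OXYT lane cannot be told apart from treatment.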

How the results depend on the processing

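The number of members called over the days stayed near the values given under each scaling tried, without a filter, with a trended dispersion, with limma and without 6 libraries of low TMM factor, while smaller sets of steers called fewer. In NC alone, with the replicate block, 0, 3, 37, 27 and 35 members were called on the 5 later days in order. In lane 1 alone any change was called in 45, and 2, 0 and 38 on days 3, 7 and 14, and in lane 3 alone 5 and 35 on days 3 and 7. These fits have fewer steers, and the share of all genes is not given here for day 3 or for any change. Of the values of single named members under the alternatives, 987 were counted as unchanged, 129 lost the call and 12 gained one. The 987 include values not called in the main fit whose sign changed, such as RPL11 on day 14, lower in the main fit and 0.28 in lane 3 alone. Another 6 values, all called in the main fit, changed sign. RPL5 on day 14 turned to -0.0086 in lane 1 alone and -0.023 without the 16 libraries, RPS27L on day 14 to -0.0055 in lane 1 alone, and RPS27A on day 21 to 0.11 in NC alone.

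Treatment calls depended on the tool. With no filter CEFT had 2 members on day 3 and 10 on day 14, and FLOR, OXYT and TILD on day 3 had 0. DESeq2 called 31 and 44 in CEFT on days 3 and 14, 13 in FLOR, 28 in OXYT and 3 in TILD on day 3, 28 in TILD on day 14 and 98 in the other 30 comparisons. After ComBat_seq by lane it was 1 and 6 in CEFT on days 3 and 14, 0 in FLOR, OXYT and TILD on day 3 and 3 in the other 30. With lane as a term all 6 comparisons called 0, and RPL21 and RPL27 in CEFT on day 14 turned to -0.27 and -0.29. TILD on day 14 had 4 with DESeq2 size factors, 2 with TMM without the members and 0 without the 16 libraries. Left-out steers, run where at least 5 members were called, gave 0 to 32 in CEFT on day 3 and 7 to 29 on day 14. The cause of these differences was not tested. Apart from the values given above, the share of all genes called under each alternative is not given here. The counts therefore do not show a change particular to the members.

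The change from day 0 without a replicate block, which ignores the pairing of days by steer, called 2 in CEFT, 0 in ENRO and 2 in OXYT. Without the 16 libraries it was 0, 2 and 0, where 571, 1560 and 24 of all genes were called, and ENRO had 2 members with TMM without hemoglobin genes. The group effect with no filter called 8 in CEFT, 10 in TILD and 4 in TULA, for which the share of all genes is not given here.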
